A study of Mus musculus with 24 samples.

Results

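Immediate early genes were followed in the ileum of mice fed a control or a high-fat diet, with or without metformin. The set held 10 genes chosen by symbol: the AP-1 subunits Fos, Fosb, Jun and Junb, the transcription regulators Egr1, Atf3, Nr4a1 and Ier2, and the feedback regulators Dusp1 and Zfp36. Each symbol matched 1 Ensembl gene among the 55536 in the read-count table, and all 10 passed the filter on low counts that left 14076 genes for testing. The choice used no measured value of these libraries, although earlier results of the same data were known when the list was drawn up. Fos lies at chr12:85473890-85477273, Fosb at chr7:19302696-19310051, Jun at chr4:95049034-95052222, Junb at chr8:84974484-84978718, Dusp1 at chr17:26505590-26562128 and Zfp36 at chr7:28376784-28380253 (GRCm38).

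Immediate early genes are transcribed within minutes of a stimulus without new protein synthesis, when kinases of the MAPK and PKA pathways activate factors such as SRF with its ELK partners and CREB that already sit at the promoters. Their mRNAs are short-lived. Fos and Jun family proteins pair into AP-1, which passes the signal on to later genes, whereas Dusp1 dephosphorylates MAP kinases and Zfp36 (tristetraprolin) hastens the decay of AU-rich mRNAs, closing the loop. In intestine they respond to growth factors, microbial products, feeding, injury and the handling of fresh tissue.

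Distal small intestine of 24 mice of the strain C57BL/6N was sequenced, with 1 library per animal. Groups of 6 (3 males and 3 females, replicate numbers 1 to 3 in each sex) received the control diet (CD, with 10% of its energy as fat), the control diet with metformin (CDmetf), a diet with 60% of its energy as fat (HFD) or that diet with metformin (HFDmetf). Mice entered the study aged 4 to 5 weeks. Metformin, at 50 mg/kg/day in the drinking water, was given for 10 weeks after 20 weeks of feeding, and the other 2 groups had the same diets for as long without the drug. Bulk RNA of tissue taken after cervical dislocation was sequenced, in which epithelial, muscle and immune markers were all present. Fewer cells that express a gene and less of its RNA per cell cannot be told apart in such samples.

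Reads on genes ran from 1829690 to 40606442 per library, and all 8 libraries of replicate number 2 held at most 3466430. Libraries are named by group, sex (M or F) and replicate number. In CD M3 the 10 most abundant genes took 85.4% of the reads and in HFDmetf F2 36.6%, against 9.22% to 18.97% elsewhere. HFD M3 and HFDmetf M3 were shallow (2699529 and 2296520 reads) with a high mitochondrial share (11.4% and 9.10%), whereas the other 6 libraries of replicate number 3 held at least 18233728 reads. Xist and Y-linked genes went against the labels in HFD M2 and HFD F2, so each of these 2 is called a library labelled so. The epithelial genes Vil1 and Epcam were abundant in every library (at least 694 and 641 CPM), but the ileal bile acid binding protein Fabp6 ranged from 0.817 CPM in HFD M3 to 2662 CPM in CDmetf F2.

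Promoter sequence from RefSeq (GRCm38.p6) was used for 8 of the 10 genes, Egr1 and Ier2 being left out. The 250 bases before the start site are shown for the 5 in which they matched a searched motif. Variants of these motifs were not searched, so promoters not shown may hold response elements too. Capitals mark the matches. These are the TATA box (TATAAA) of Fos, the cAMP response element (TGACGTCA) of Dusp1, the CArG box that SRF binds in Zfp36, and the EGR site (GCGGGGGCG, read as CGCCCCCGC on the other strand) that EGR1 binds in Fosb, Nr4a1 and Zfp36.
Fos promoter (chr12:85473640-85473889, plus strand): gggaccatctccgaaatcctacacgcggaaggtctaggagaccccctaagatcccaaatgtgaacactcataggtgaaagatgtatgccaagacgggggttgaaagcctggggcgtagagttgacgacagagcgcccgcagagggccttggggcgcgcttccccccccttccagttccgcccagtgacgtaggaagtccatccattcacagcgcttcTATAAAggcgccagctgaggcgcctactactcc
Fosb promoter (chr7:19310046-19310295, minus strand): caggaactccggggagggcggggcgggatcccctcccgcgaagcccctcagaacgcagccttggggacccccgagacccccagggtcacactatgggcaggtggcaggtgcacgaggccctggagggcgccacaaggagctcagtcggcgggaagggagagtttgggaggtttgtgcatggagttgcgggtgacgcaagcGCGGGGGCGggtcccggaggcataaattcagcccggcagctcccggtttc
Nr4a1 promoter (chr15:101266596-101266845, plus strand): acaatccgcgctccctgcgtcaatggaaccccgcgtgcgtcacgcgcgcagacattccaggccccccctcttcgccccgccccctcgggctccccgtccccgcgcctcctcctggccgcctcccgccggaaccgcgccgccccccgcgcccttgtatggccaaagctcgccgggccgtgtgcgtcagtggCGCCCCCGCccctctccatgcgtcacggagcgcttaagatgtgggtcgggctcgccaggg
Dusp1 promoter (chr17:26508473-26508722, minus strand): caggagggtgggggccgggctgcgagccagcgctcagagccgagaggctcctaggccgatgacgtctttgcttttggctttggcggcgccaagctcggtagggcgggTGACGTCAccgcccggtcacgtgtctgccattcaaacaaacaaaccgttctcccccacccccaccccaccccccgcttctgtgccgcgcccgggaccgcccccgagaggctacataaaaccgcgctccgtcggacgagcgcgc
Zfp36 promoter (chr7:28379229-28379478, minus strand): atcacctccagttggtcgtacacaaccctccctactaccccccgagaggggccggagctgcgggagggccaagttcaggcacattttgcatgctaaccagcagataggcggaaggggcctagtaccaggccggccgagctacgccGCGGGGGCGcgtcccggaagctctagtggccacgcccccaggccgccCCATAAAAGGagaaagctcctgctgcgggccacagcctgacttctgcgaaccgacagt

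The CArG box of Zfp36 began 58 bases and its EGR site 105 bases upstream of the start site, the EGR sites of Fosb and Nr4a1 began 50 and 60 bases upstream, and the cAMP response element of Dusp1 began 143 bases upstream. Motifs were searched on both strands in windows of 300 bases that ran 50 bases past the start site, and no matches overlapped. Of all 32851 promoters in the table, 2.91% held the EGR site, 1.63% a CArG box, 1.79% the cAMP response element and 13.6% TATAAA. Among the 8 immediate early promoters these were found in 3, 1, 1 and 2. The AP-1 site TGACTCA, present in 5.20% of all promoters, was in 0 of the 8 windows. Only this exact string was searched, which says nothing of variant sites within the windows or of sites elsewhere. A match is a stretch of letters and not a measured binding site.

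Per kilobase of exon, Junb was the most abundant member (median 44.2 CPM per kb over 24 libraries, range 19.2 to 74.4), followed by Fos (35.3), Zfp36 (31.5), Jun (29.96) and Ier2 (23.5). The order among Fos, Zfp36 and Jun was loose, since Fos exceeded Zfp36 in only 12 of 24 libraries and Zfp36 exceeded Jun in 12. A step then separated Ier2 from Atf3 (5.52), above which it lay in 23 of 24 libraries. Egr1 (4.84), Dusp1 (3.55), Nr4a1 (2.05) and Fosb (0.94) made up the low end, with Egr1 below Atf3 in 12 of 24. Counts were lowest for Atf3 (7 to 2031 reads per library), Fosb (9 to 1488) and Nr4a1 (13 to 399), and the shallow libraries weigh most on these. Reads of Jun, Junb, Atf3, Dusp1 and Zfp36 may include some from overlapping genes, such as Junos for Jun and Prdx2 for Junb, because the strand used in counting is not named in the sources used here.

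Animals differed widely in these genes, and 9 of 10 varied more than the median gene. The highest library exceeded the lowest 19.04-fold for Egr1, 18.8-fold for Atf3, 16.4-fold for Fosb, 10.8-fold for Fos and 10.2-fold for Nr4a1. Ier2, a nuclear regulator induced with the others, moved least, at 2.88-fold. The biological coefficient of variation is the variation left around the fitted terms for group, sex and replicate number. It was 0.69 for Fosb, 0.68 for Atf3, 0.63 for Egr1, 0.52 for Fos and 0.49 for Nr4a1, each above at least 93.4% of tested genes. For Zfp36 it was 0.38, for Jun 0.30, for Junb 0.28, for Dusp1 0.28 and for Ier2 0.22, the last near the median gene (48.8th percentile).

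**Figure D1:**
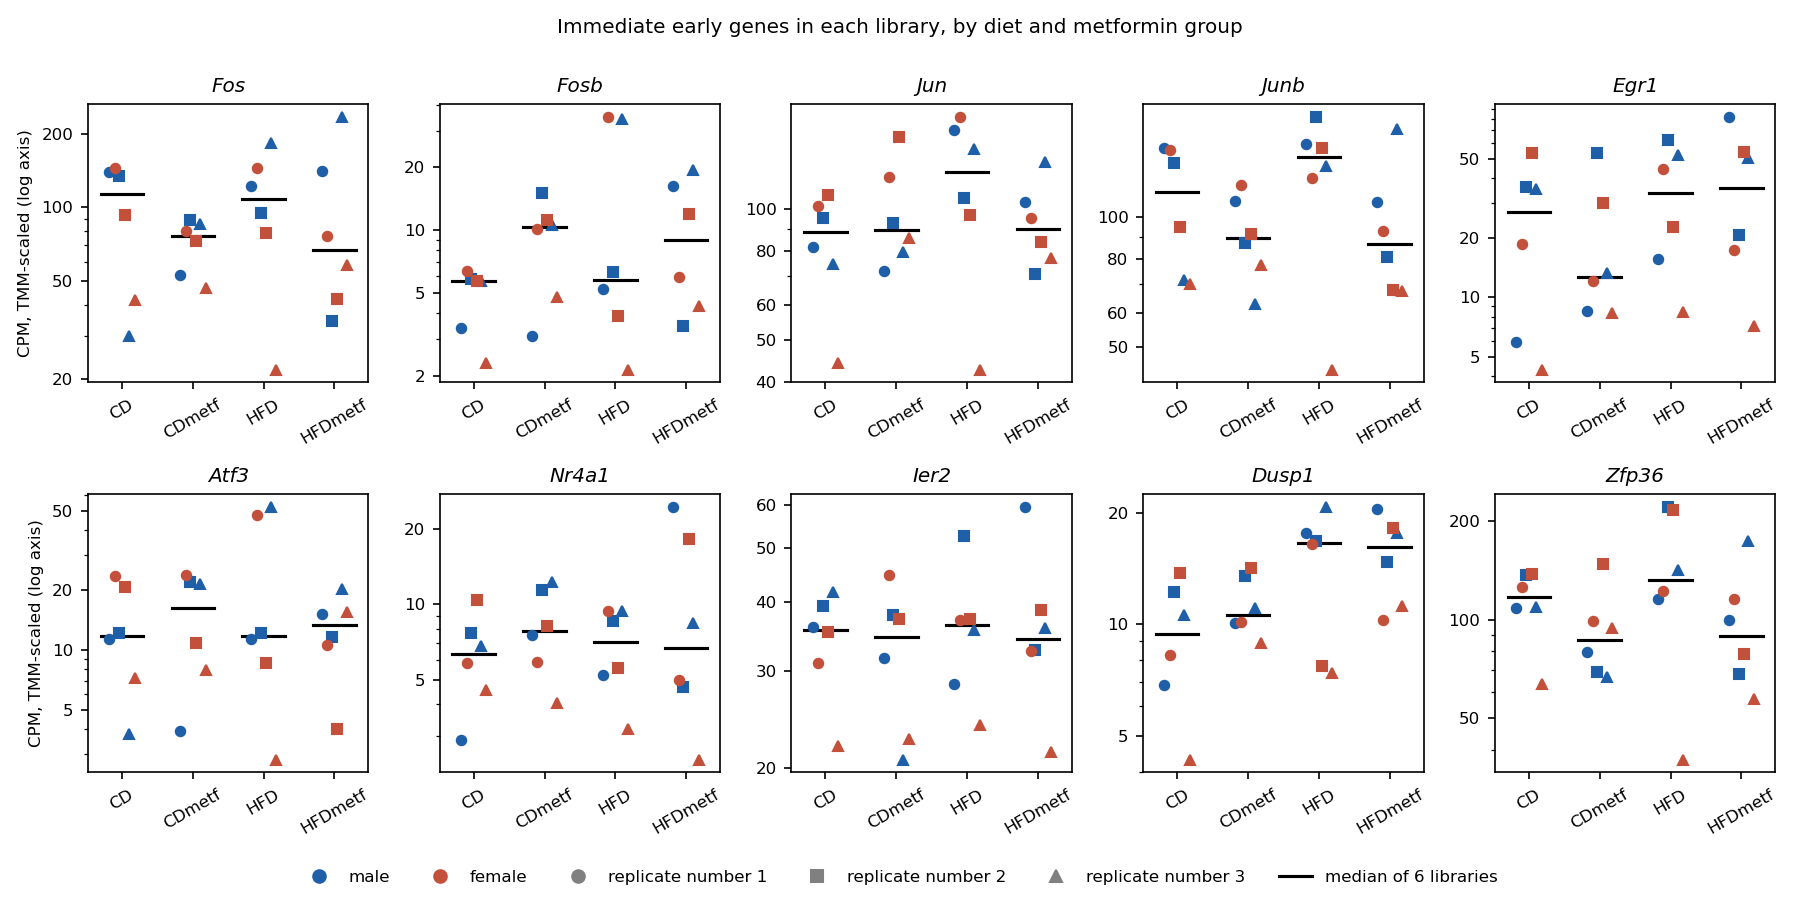
Each point is 1 library, with CPM scaled by TMM library sizes on a log axis, by diet and metformin group; colour gives the labelled sex, shape the replicate number and the bar the median of 6 libraries. The groups overlap for all 10 genes, and HFD F3 is the lowest of the HFD libraries in every panel.

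No immediate early gene differed between HFD and CD at an FDR under 0.05 (edgeR's quasi-likelihood test, Benjamini-Hochberg over 14076 genes), and neither did any other gene (0% called). All 10 fitted log2 fold changes were above 0, with a median of 0.37 against -0.005 over all genes, of which 48.8% were above 0. The members were correlated across libraries (median r of 0.54 over their pairs). Their signs are therefore not independent, here and in the counts of signs below. An unadjusted p under 0.05 was reached by 2 members, Fosb and Dusp1, where 4.63% of all genes reached it. The groups overlapped for every member. Depth and marker levels differed between the same groups. The median library held 10387014 reads in CD and 3145285 in HFD, with 18.1% and 22.4% of reads unmapped, and 3 of 9 smooth muscle markers were lower in HFD at an unadjusted p under 0.05 (0 by FDR). With log2 library size as a covariate all 10 values stayed above 0.

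Fosb, a Fos family subunit less abundant than Fos, ranged from 2.31 to 6.34 CPM in CD (median 5.68) and from 2.13 to 34.97 in HFD (median 5.73). The medians were nearly the same, and the fold change rested on HFD F1 (34.97) and HFD M3 (33.9), which stood above the other 4 HFD libraries (at most 6.25). Its log2 fold change was 1.59 (SE 0.63, FDR 0.9997 by edgeR), and it was higher in 4 of 6 pairs of the same labelled sex and number. Without HFD F1 the value fell to 0.73. Atf3, a stress-induced factor of the ATF family that pairs with Jun, had the same 2 libraries on top, at 47.7 CPM in HFD F1 and 52.7 in HFD M3, with the other 4 between 2.80 and 12.2. In CD it ranged from 3.78 to 23.5 (median 11.8, HFD median 11.7). Its log2 fold change of 0.73 (SE 0.60, FDR 0.9997 by edgeR) came down to 0.18 without HFD F1.

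Dusp1 ranged from 4.30 to 13.7 CPM in CD (median 9.45) and from 7.41 to 20.8 in HFD (median 16.6). Here 4 of 6 HFD libraries, HFD F1 and the 3 labelled male, lay above the highest CD library, while HFD F3 and the library labelled HFD F2 (7.71) lay within the CD range. Its log2 fold change was 0.68 (SE 0.25, FDR 0.9997 by edgeR), higher in 5 of 6 pairs by label. With limma-voom and sample quality weights, which give less weight to libraries that stray from the fit, it was 1.05 (SE 0.19, FDR 0.0117), the only member called under any setting, while 3.3% of all genes were called in that fit. Leaving out any 1 library kept it between 0.55 and 0.84. Jun had a median of 88.6 CPM in CD (44.2 to 108) and 122 in HFD (42.6 to 164), and its log2 fold change was 0.46 (SE 0.25, FDR 0.9997 by edgeR). Egr1, a zinc finger factor induced through SRF, had medians of 27.0 CPM in CD (4.30 to 53.6) and 33.6 in HFD (8.46 to 62.2), and a log2 fold change of 0.57 (SE 0.56), which came down to 0.14 without HFD F1.

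For Fos, Junb, Nr4a1, Ier2 and Zfp36 the log2 fold change was smaller than its SE. Fos had a median of 114 CPM in CD (29.8 to 145) and 109 in HFD (21.7 to 184), and was higher in HFD in only 1 of 6 pairs by label. In another pair HFD F1 and CD F1 were nearly equal (145.1 and 145.3). The library labelled HFD M2 (95.1) lay below CD M2 (134.3) but above CD F2 (93.2), and that labelled HFD F2 (78.4) below both. Pairs with these HFD libraries go by labels that Xist and Y-linked genes went against, here and for the other members. Zfp36 spanned 37.3 to 222 CPM in HFD, with HFD F3 lowest and the library labelled HFD M2 (222) and that labelled HFD F2 (217) highest, against 63.6 to 138 in CD. Without the latter 2, 7 of 10 members stayed above 0. Without HFD M3 and HFDmetf M3, 9 of 10 did and the median over the members came to 0.16, less than its value with all libraries. B-cell markers moved in the same contrast (8 of 10 higher at an unadjusted p under 0.05, 0 by FDR), their summed level ranging from 7.87 to 76.6 CPM in CD and 14.3 to 332 in HFD, with 3 of the 10 markers at 0 in at least 1 HFD library. With the B-cell score as a covariate all 10 members stayed above 0 and Dusp1 was at 0.58 (FDR 0.886 by edgeR).

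With metformin on both diets, HFDmetf vs. CDmetf, 0 members were called and 0 reached an unadjusted p under 0.05, where 0% and 7.87% of all genes did. Dusp1 was higher in 6 of 6 pairs, with 8.90 to 14.2 CPM in CDmetf (median 10.6) and 10.3 to 20.5 in HFDmetf (median 16.2), and the groups overlapped. Its log2 fold change was 0.42 (SE 0.25, FDR 0.661 by edgeR). Egr1 had a median of 12.7 CPM in CDmetf (8.31 to 53.5) and 35.8 in HFDmetf (7.15 to 81.9), a log2 fold change of 1.04 (SE 0.57, FDR 0.657 by edgeR). HFDmetf M1 held the highest Egr1 (81.9), Nr4a1 (24.5) and Ier2 (59.5) of all 24 libraries, and without it the Egr1 value was 0.67. The other 8 members changed by less than their SE, and 8 of 10 values in all were above 0.

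Metformin on the high-fat diet, HFDmetf vs. HFD, gave 0 members called and 0 at an unadjusted p under 0.05 (0% and 6.61% of all genes). Lower values in HFDmetf exceeded their SE for Atf3 (-0.74, SE 0.60), Zfp36 (-0.42, SE 0.32), Junb (-0.34, SE 0.24) and Jun (-0.27, SE 0.25). Atf3 had nearly equal medians, 11.7 CPM in HFD and 13.4 in HFDmetf, but no HFDmetf library exceeded 20.4, and without HFD M3 its value was -0.09. Junb, a subunit that can restrain Jun, ranged from 44.3 to 171 CPM in HFD (median 138) and from 67.3 to 160 in HFDmetf (median 86.9). There HFDmetf M3 stood highest, and without it Junb was at -0.63. Nr4a1, an orphan nuclear receptor, was at 0.45 (SE 0.44), a value that HFDmetf M1 (24.5 CPM) and HFDmetf F2 (18.2) set, since the other 4 HFDmetf libraries lay between 2.41 and 8.41 and HFD between 3.19 and 9.40. Leaving out HFDmetf M1 turned its direction (-0.07).

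Metformin on the control diet, CDmetf vs. CD, likewise gave 0 members called and 0 at an unadjusted p under 0.05 (0% and 5.14% of all genes). Fosb had a median of 10.3 CPM in CDmetf (3.12 to 15.03) against 5.68 in CD, higher in 5 of 6 pairs, with a log2 fold change of 0.95 (SE 0.63, FDR 0.95 by edgeR). All 6 CD libraries lay below 4 of the 6 CDmetf libraries, and the groups overlapped through CDmetf M1 (3.12) and CDmetf F3 (4.75). Dusp1 was higher in 6 of 6 pairs but by little (0.34, SE 0.25, FDR 0.951 by edgeR), and Jun was at 0.27 (SE 0.25). Fos spanned 46.8 to 88.7 CPM in CDmetf, the narrowest of the 4 groups.

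The diet by metformin interaction, which asks whether the effect of the drug differed between diets, was called for 0 members, and 0 had an unadjusted p under 0.05 (0% and 6.03% of all genes). Fosb came nearest, at -1.55 (SE 0.88, FDR 0.799 by edgeR), and moved to -0.65 without HFD F1. Atf3 was at -0.95 (SE 0.84) and Jun at -0.54 (SE 0.35). These contrasts share the HFD and CD libraries with those above.

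Markers of immune cells moved in the same contrasts at an unadjusted p under 0.05, with 0 by FDR. B-cell markers were higher in CDmetf than CD (10 of 10) and lower in HFDmetf than CDmetf (10) and HFD (9), with summed levels of 12.3 to 426 CPM in CDmetf and 8.98 to 30.1 in HFDmetf. In HFDmetf vs. CDmetf 5 of 6 T-cell markers were lower and 3 of 8 endothelium markers higher, with which Dusp1 and Egr1 had r of 0.47 and 0.41 across libraries. The interaction was below 0 for 10 of 10 B-cell and 5 of 6 T-cell markers. Macrophage markers, which Dusp1 tracked across libraries, were higher in HFDmetf than HFD (3 of 8) and than CDmetf (2), and in CDmetf than CD (2), with summed levels of 140 to 281 CPM in HFDmetf, 112 to 214 in CDmetf, 110 to 189 in HFD and 91.4 to 180 in CD. The part of these cells in the values of Dusp1 and the other members was not tested.

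**Figure D2:**
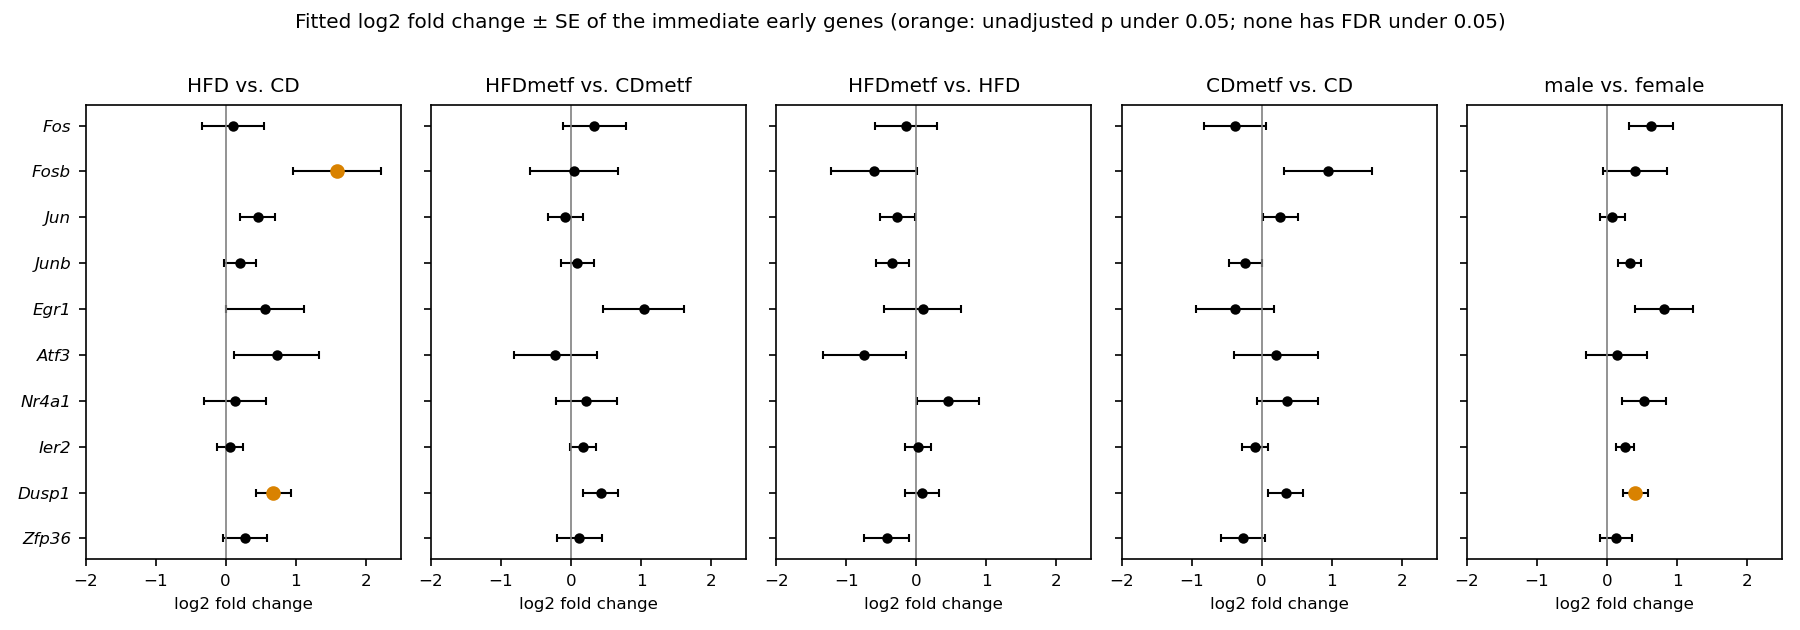
Points are fitted log2 fold changes and bars their SE for the 10 genes in 4 diet and metformin contrasts and in males vs. females; orange marks an unadjusted p under 0.05. Fosb (1.59) and Dusp1 (0.68) in HFD vs. CD and Dusp1 (0.41) in males are marked, and no value has an FDR under 0.05.

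Males had higher fitted values than females for 10 of 10 members (53.8% of all genes), with a median of 0.36. As in HFD vs. CD, these signs are not independent. By FDR 0 were called (0.0071% of all genes) and only Dusp1 reached an unadjusted p under 0.05 (7.27% of all genes). Dusp1 ranged from 6.88 to 20.8 CPM in males and from 4.30 to 18.2 in females, with a log2 difference of 0.41 (SE 0.17, FDR 0.652 by edgeR). Egr1 was at 0.82 (SE 0.41), Fos at 0.63 (SE 0.32), Nr4a1 at 0.53 (SE 0.31), Junb at 0.33 (SE 0.17) and Ier2 at 0.26 (SE 0.13), each with an FDR of 0.682 to 0.696 by edgeR. The median library held 3450800 reads in males and 10818004 in females, with 24.6% and 17.1% unmapped, and 2 of 9 smooth muscle and 2 of 8 macrophage markers were higher in males at an unadjusted p under 0.05. With log2 library size as a covariate 8 of 10 members were above 0 and Junb was at 0.11. Without HFDmetf M1 Egr1 was at 0.54 and Nr4a1 at 0.25. Across pairs of the same group and number, taken by labelled sex, Junb was higher in the male in 9 of 12 and Zfp36 in 4 of 12. Leaving out the pair with mismatched sex labels, all 10 stayed above 0. Without HFD M3 and HFDmetf M3, both male, 6 of 10 were above 0.

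Differences between the sexes in the response were called for 0 members in all 4 contrasts, as for all genes (0%). Males had the larger HFDmetf vs. CDmetf value for 10 of 10 members, and Ier2 alone passed an unadjusted p under 0.05 (0.72, SE 0.34, FDR 0.938 by edgeR), where 5.28% of all genes did. Zfp36 was at 1.18 (SE 0.63), Fos at 0.99 (SE 0.92), Junb at 0.86 (SE 0.47) and Jun at 0.77 (SE 0.50). HFDmetf M3 set much of this, since Fos turned to -0.16 and Junb fell to 0.22 without it. In CDmetf vs. CD the difference was -0.67 for Ier2 (SE 0.34), -0.80 for Zfp36 (SE 0.63), -0.54 for Jun (SE 0.49) and 1.13 for Nr4a1 (SE 0.86), and in HFD vs. CD it was 1.38 for Atf3 (SE 1.26) and 0.50 for Dusp1 (SE 0.49). The last 2 values use the HFD libraries that go against their sex labels, and were 1.45 and 0.46 without them. Atf3 ranged from 0.17 (without HFD M3) to 3.25 (without HFD F1), and Dusp1 from 0.17 (without CD F2) to 1.06 (without HFD F1). In these and in HFDmetf vs. HFD 0 members reached an unadjusted p under 0.05, against 5.21%, 2.11% and 3.33% of all genes.

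The libraries were also compared by replicate number. Whether these numbers are the study's time blocks, 3 groups of animals started at intervals of weeks, is not stated, and depth differed between them as given above. In the test over all 3 numbers 1 member, Ier2, was called (FDR 0.047, edgeR), where 16.6% of all genes were, and Ier2, Egr1 and Junb had an unadjusted p under 0.05 (36.8% of all genes). The share of members called was thus not above that of genes at large.

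Comparing replicate number 3 with 1, all 10 fitted values were below 0 (53.3% of all genes), 5 of them by less than their SE. Their median was -0.42 against -0.03 over all genes. As in HFD vs. CD, these signs are not independent. Ier2 ranged from 28.4 to 59.5 CPM in number 1 (median 34.3) and from 20.7 to 41.6 in number 3 (median 23.2). Among the 8 libraries of number 3, CDmetf M3, HFDmetf F3, CD F3, CDmetf F3 and HFD F3 lay at 20.7 to 23.9 CPM, below every library of the other numbers. The remaining 3, HFD M3, HFDmetf M3 and CD M3, lay at 35.6 to 41.6. Scaled by TMM, their library sizes were 2447238, 2258773 and 4232409, against at least 19057354 in the lower ones. The log2 fold change of Ier2, -0.47 (SE 0.16, FDR 0.046 by edgeR), was the only call among members. Of all genes 16.4% were called in either direction, 6.56% as lower in number 3, and 32% had an unadjusted p under 0.05. Several single libraries decide that call: without each of CD M2, CD F1, CD F2, CD F3, CDmetf M2, CDmetf M3, CDmetf F1, CDmetf F3, HFD F1, HFD F3, HFDmetf M1, HFDmetf F1, HFDmetf F2 and HFDmetf F3 its FDR rose to 0.0507 to 0.112. Junb ranged from 93.1 to 148 CPM in number 1 (median 121) and from 44.3 to 160 in number 3 (median 70.8), with a log2 fold change of -0.56 (SE 0.20, FDR 0.062 by edgeR). Jun was at -0.42 (SE 0.22), Fos at -0.52 (SE 0.39) and Nr4a1 at -0.42 (SE 0.37). Without HFDmetf M1 Nr4a1 was at -0.07.

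HFD M3 and HFDmetf M3, the shallow libraries of number 3, went the other way. Fos reached 184 and 235 CPM in them, the 2 highest of all 24 libraries, against 21.7 to 85.6 in the other 6 libraries of number 3. Junb reached 132 and 160, so that numbers 3 and 1 overlapped, while the other 6, at 44.3 to 77.4, all lay below the lowest library of number 1. Every other member overlapped number 1 even without these 2 libraries. For how many of all genes the other 6 were so separated was not counted. A fit without these 2 was chosen after seeing the data, and both held high values of several tested members. Its calls follow in part from that choice and are given as a description only. In it 4 members were called as lower in number 3 than in number 1, where 24.3% of all genes were called and 10.9% as lower. These were Junb (-0.86, SE 0.17, FDR 0.00175), Fos (-1.19, SE 0.33, FDR 0.0143), Jun (-0.71, SE 0.21, FDR 0.0171) and Ier2 (-0.55, SE 0.17, FDR 0.0246), all by edgeR. With sample quality weights in limma-voom and all 24 libraries 8 were called as lower, all but Atf3 and Nr4a1, where 48.3% of all genes were called and 26.3% as lower.

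Against replicate number 2, all of whose libraries were shallow, number 3 had lower values for 9 of 10 members and 0 calls, where 8.23% of all genes were called, 3.89% as lower, and 28.5% had an unadjusted p under 0.05. Egr1 ranged from 20.7 to 62.2 CPM in number 2 (median 44.8) and from 4.30 to 52.7 in number 3 (median 10.9). Its log2 fold change was -1.35 (SE 0.50, FDR 0.0871 by edgeR), and that of Ier2 -0.52 (SE 0.16, FDR 0.0502 by edgeR). Nr4a1 was at -0.66 (SE 0.39), Zfp36 at -0.50 (SE 0.28), Dusp1 at -0.41 (SE 0.21), Junb at -0.34 (SE 0.20) and Jun at -0.30 (SE 0.22). Without HFD M3 and HFDmetf M3, Junb, Ier2 and Egr1 were called as lower, where 11% of all genes were called and 4.46% as lower. These calls too depend on leaving out libraries with high values of the tested members. With quality weights 6 members were called as lower, where 32% of all genes were called and 18.4% as lower. Number 2 and number 1 differed in 0 members by FDR (0.291% of all genes) and 0 by unadjusted p (18.9%). There Egr1 was at 0.90 (SE 0.49), Fos at -0.49 (SE 0.38) and Junb at -0.22 (SE 0.20).

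Depth and some cell type markers differed between the replicate numbers too. In 3 vs. 1, 16.4% of all genes were called, 6.56% as lower, and 32% had an unadjusted p under 0.05. B-cell markers were lower in number 3 than in number 1 for 4 of 10 genes by FDR (9 by unadjusted p), their summed level ranging from 12.6 to 332 CPM in number 1 and 7.87 to 122 in number 3, with 2 of 10 at 0 in a library of number 3. Of 8 macrophage markers 1 was lower by FDR, the complement gene C1qa, and the summed level was 100.5 to 281 CPM in number 1 and 91.4 to 167 in number 3. With log2 library size as a covariate Ier2 was at -0.39 (FDR 0.145, edgeR), and with the B-cell score at -0.45 (FDR 0.0979, edgeR). In 3 vs. 1, 1 of 10 epithelial markers (Cdx1) and 1 of 8 endothelial markers (Egfl7) were lower by FDR as well. In 3 vs. 2, 2 of 10 epithelial (Cdx1 and Elf3), 2 of 8 macrophage (C1qa and C1qc) and 1 of 6 T-cell markers (Cd4) were lower by FDR. The median over the epithelial markers was 0.03, and 1 of 8 fibroblast markers was higher by FDR. Of all genes 8.23% were called there, 3.89% as lower. At an unadjusted p under 0.05, 9 of 10 B-cell and 4 of 9 smooth muscle markers were lower, against 28.5% of all genes in either direction. Under the library size covariate Jun (0.028), Junb (0.14) and Zfp36 (0.018) had values above 0 in 3 vs. 2, and the genes called there went from 1159 to 0. The part of depth and of these cells in the replicate difference was not tested further.

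**Figure D3:**
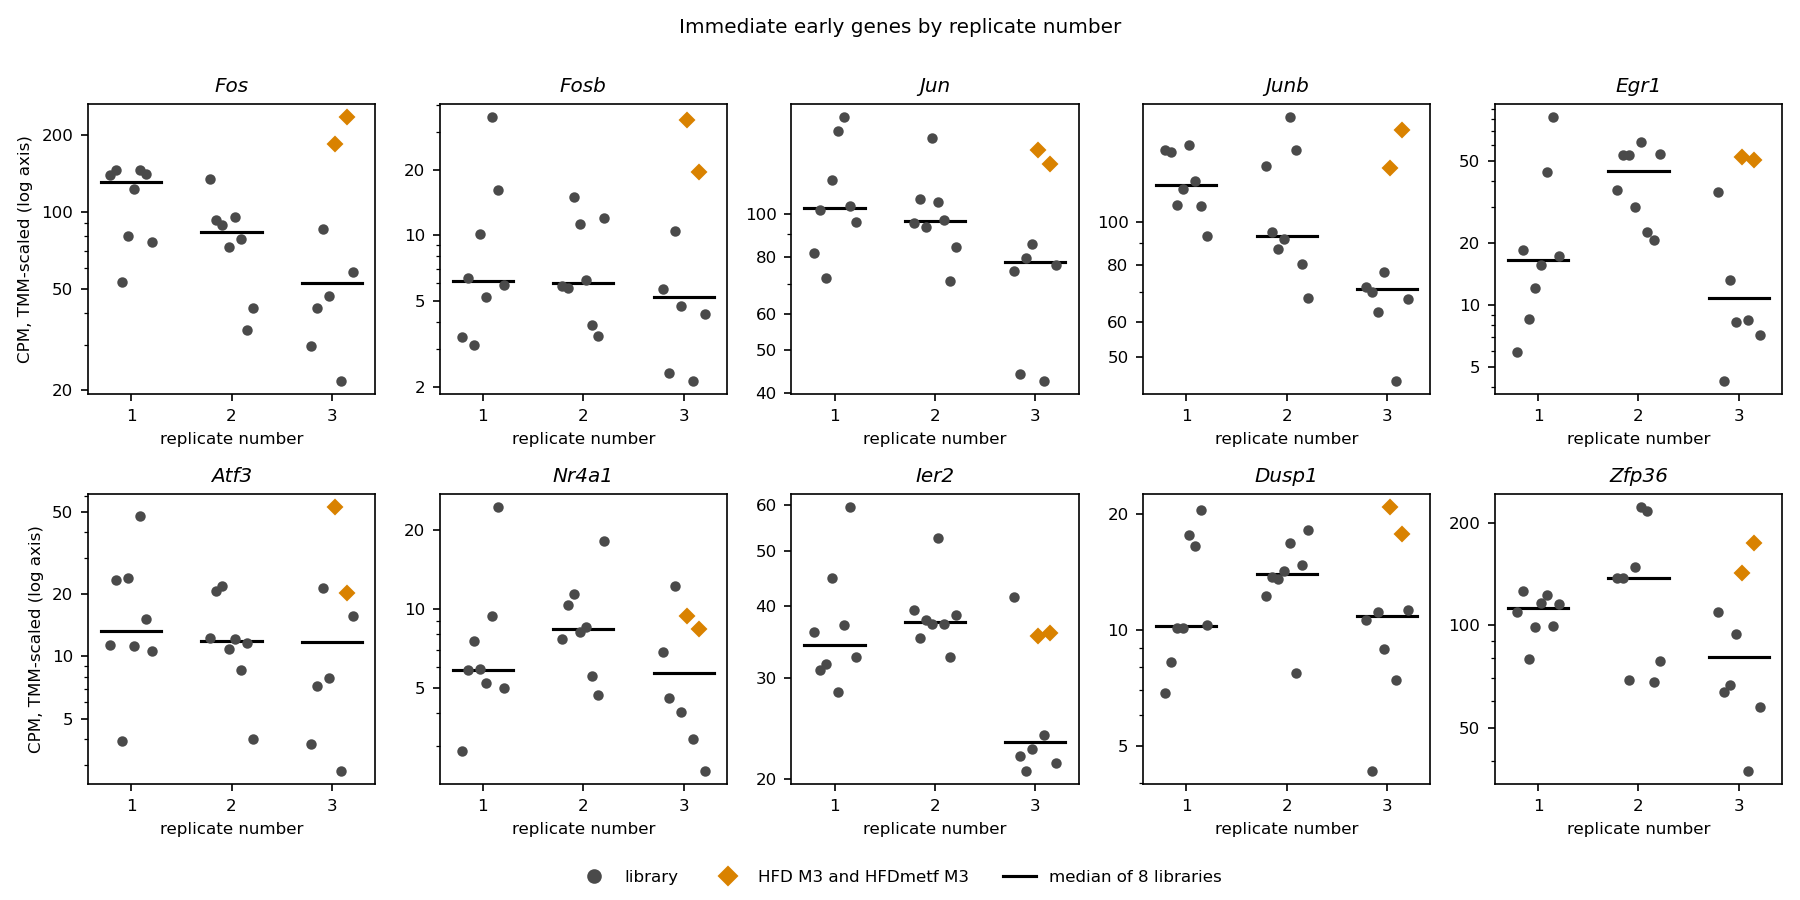
Each point is 1 library, with CPM on a log axis, by replicate number; bars are medians of 8 libraries and orange diamonds mark HFD M3 and HFDmetf M3. The other 6 Junb values of number 3 (at most 77.4 CPM) lie below all of number 1 (at least 93.1), and 5 Ier2 values of number 3 form a cluster at 20.7 to 23.9. With the diamonds Junb overlaps number 1, and all other members overlap it without them too.

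Values of the members were correlated across animals. Over the 45 pairs of members, Pearson's r of log2 CPM in 24 libraries had a median of 0.54 (0.13 to 0.83), and 25 pairs exceeded 0.5 (55.6%, against 7.15% of all pairs of tested genes, whose median was 0.001). The libraries share diets, sexes, replicate numbers and depth. After removing group, sex and replicate number the median was 0.49 (0.00 to 0.86), with 46.7% of pairs above 0.5 (7.99% of all gene pairs), and after removing log2 reads on genes as well it was 0.48 (-0.09 to 0.85). The closest pairs were Junb with Zfp36 (0.83), Fos with Junb (0.80), Egr1 with Dusp1 (0.80), Egr1 with Nr4a1 (0.78) and Fos with Atf3 (0.77). Egr1 and Nr4a1 also rose with smooth muscle markers (r of 0.49 and 0.57), for which Fos was at -0.15, Junb at -0.22 and Zfp36 at -0.15. Conversely Junb rose with epithelial markers (0.63), as did Fos (0.47) and Zfp36 (0.43), while Egr1 and Nr4a1 were at -0.12 and -0.20. Egr1 also rose with the share of unmapped reads (0.63) and fell with depth (-0.51), and Nr4a1 rose with macrophage and endothelium markers (0.52 each) and unmapped reads (0.50). Dusp1 rose with macrophage markers (0.66) and unmapped reads (0.50). Junb with Nr4a1 was the loosest pair (0.13).

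**Figure D4:**
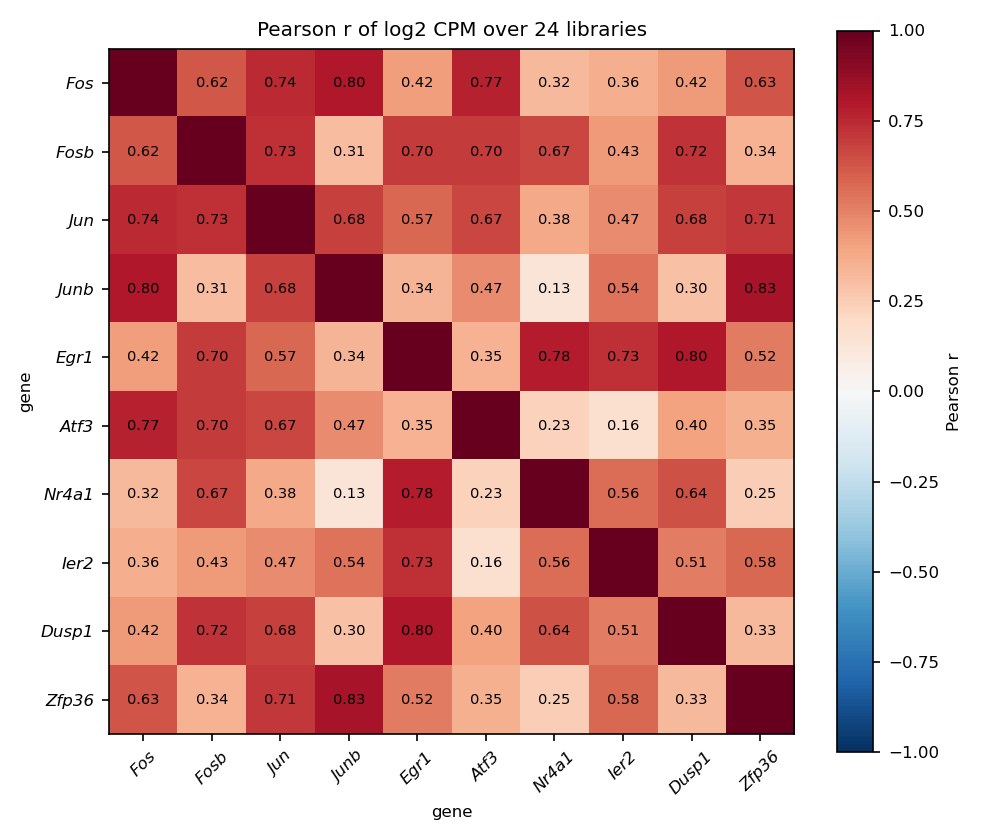
Squares give Pearson's r of log2 CPM over 24 libraries for each pair of the 10 genes, from blue (negative) to red (positive). All 45 values are above 0, from 0.13 for Junb with Nr4a1 to 0.83 for Junb with Zfp36.

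Summarised as the mean z-score of the 10 genes per library, HFD M3 (1.13), HFD F1 (1.02), HFDmetf M1 (1.01) and HFDmetf M3 (0.99) were highest and HFD F3 (-1.76) and CD F3 (-1.44) lowest. The HFD group thus held both the highest and the lowest animal. HFD F3 had the lowest HFD value of all 10 members, and CD F3 the lowest CD value of 7. Group medians were -0.09 in CD, -0.04 in CDmetf, 0.52 in HFD and -0.06 in HFDmetf, within overlapping ranges. The score fell with log2 reads on genes (r = -0.53) and rose with the share of unmapped reads (0.41) and of mitochondrial reads (0.40). HFD F1, with 40606442 reads the deepest library, was an exception to the relation with depth. The 6 deeper libraries of number 3 ran from -1.76 to -0.29. CD M3 is among them by its reads, but its library size scaled by TMM was 4232409, against at least 19057354 in the others. The r with depth and the library size covariate use unscaled reads.

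**Figure D5:**
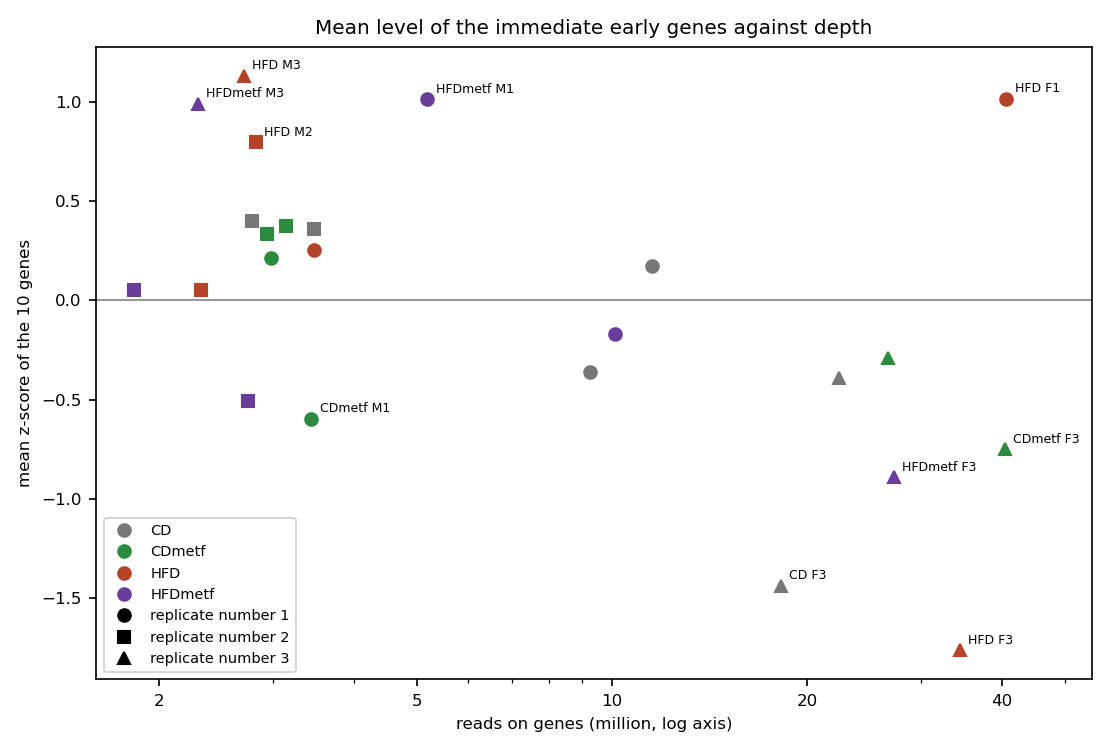
Each point is 1 library, with the number of reads on genes on a log axis and the mean z-score of the 10 genes; colour gives the group and shape the replicate number, and libraries far from 0 are named. Deep libraries of replicate number 3 lie below 0, and HFD F1 is the deep library far above it (1.02).

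Other immediate early genes behaved alike in part. Of 50 listed, 43 were tested, and their r with the members' score had a median of 0.31, with 11 above 0.5 (5.66% of all genes). The closest were the small Maf protein Maff (0.71), the EGF receptor ligand Hbegf (0.70), Csrnp1 (0.69), the AP-1 subunit Jund (0.68) and Zfp36l1 (0.68), a relative of Zfp36. Over all 14066 other genes, 54 exceeded 0.7, and the 10 closest were Zyx (0.79), Runx1 (0.79), 1700017B05Rik (0.79), Zfp703 (0.78), Gnai2 (0.78), Gas2l1 (0.77), Tlnrd1 (0.77), Scand1 (0.77), Mapre3 (0.76) and Med26 (0.76). Zyx encodes zyxin, a focal adhesion protein, and Runx1 a transcription factor. No gene of the list of 50 was among these 10.

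In HFD vs. CD 0 of the 43 others were called. The 2 with an unadjusted p under 0.05 (4.63% of all genes), Gadd45b (0.58, SE 0.24) and Egr3 (1.74, SE 0.76), were higher in HFD. The median over the list was 0.12. In CDmetf vs. CD 2 had an unadjusted p under 0.05 (5.14% of all genes). Egr3 was higher (1.84, SE 0.76) and Socs3, an inhibitor of cytokine signalling, lower (-0.80, SE 0.36). In HFDmetf vs. HFD 4 had an unadjusted p under 0.05 (6.61% of all genes). Of these, the nuclear receptor Nr4a2 was at 0.59 (SE 0.20), Socs3 at -0.97 (SE 0.37), the NF-kappa B inhibitor gene Nfkbia at -0.34 (SE 0.15) and Tob1 at -0.38 (SE 0.18). In HFDmetf vs. CDmetf the 1 such gene was Nfkbia (-0.41, SE 0.15), where 7.87% of all genes passed. Males had higher values for 5, among them Ccn1 (0.82, SE 0.30) and Ier3 (0.39, SE 0.15), where 7.27% of all genes passed in either direction. None of these diet, drug or sex values passed an FDR of 0.05 by edgeR. Between replicate numbers 3 and 1, 1 gene rose by FDR, Phlda1 (1.07, SE 0.29), and 1 fell, Gadd45b (-0.66, SE 0.20). Of all genes 16.4% were called there. Between 3 and 2, where 8.23% of all genes were called, 3 fell, Areg (-1.95, SE 0.53), Ppp1r15a (-0.83, SE 0.24) and Zfp36l2 (-0.65, SE 0.19).

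Of the 20 kinases and factors that act upstream (MAP kinases, SRF, ELK factors, CREB), all were tested and 0 were called for diet or metformin, with medians between -0.04 and 0.05 in the 4 contrasts. Crem, a cAMP-responsive factor, had an unadjusted p under 0.05 in CDmetf vs. CD (0.41, SE 0.18), as did the kinase gene Rps6ka5 in HFDmetf vs. HFD (-0.60, SE 0.24). Each was 1 of 20 in its contrast, where 5.14% and 6.61% of all genes passed. Between replicate numbers 3 and 1, Creb1 (0.31, SE 0.09) and Rps6ka3 (0.47, SE 0.13) rose and Map2k2 (-0.64, SE 0.18), a MAP kinase kinase, fell by FDR. These were 3 of 20, where 16.4% of all genes were called. Between 3 and 2, 4 of 20 passed by FDR (8.23% of all genes). Of these, Srf (-0.65, SE 0.14), whose protein binds the CArG box, and the kinase gene Mapk7 (-0.73, SE 0.19) fell, and Crem (0.60, SE 0.17) rose, and 1 that rose is not reported here. Heat shock genes, another early stress response, gave 0 calls among 11 tested in any diet or metformin contrast. In CDmetf vs. CD 4 of the 11 had an unadjusted p under 0.05 (5.14% of all genes), all higher with metformin. They were Hsph1 (0.90, SE 0.24), Hspa5 (0.41, SE 0.14), Hspa8 (0.38, SE 0.15) and Hsp90aa1 (0.42, SE 0.17). In number 3 vs. 1 Hspe1 (1.03, SE 0.18), Hspd1 (0.64, SE 0.17) and Dnaja1 (0.42, SE 0.13) rose by FDR, 3 of 11 against 16.4% of all genes called. By unadjusted p 4 heat shock genes were higher and 2 lower. All 10 immediate early genes had values below 0 there, with 1 called.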

How the data were processed

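The authors deposited raw read counts per gene for 24 libraries. Per the methods of the study, reads were trimmed with Trimmomatic 0.39 and aligned with STAR 2.5.3a to GRCm38; neither the release of the annotation nor the strand counted is given in the sources used here. The libraries were rRNA-depleted. All 24 columns were matched to animals by their labels, with 0 columns of other samples, and 4 rows that name no gene were kept out of library sizes and tests (35.5% to 75.7% of all reads).

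Counts were analysed in R 4.3.3 with edgeR 4.0.16: filterByExpr, TMM factors, and a quasi-likelihood model of group, sex and replicate number over the 24 libraries (14076 genes, 17 residual degrees of freedom), or 8 groups of diet, drug and sex (14402 genes, 14 degrees of freedom) for differences between the sexes. Adjustment was by Benjamini-Hochberg over all genes tested, with a threshold of 0.05. The study's own model has a sequencing block, and replicate number was entered in its place, although no source used here says that the numbers are those blocks. P-values measure the spread between animals.

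CPM are counts scaled by TMM-adjusted library size, log2 CPM has a prior count of 1, and 3 counts correspond to 0.0705 to 1.71 CPM. Lengths, positions and overlaps came from GENCODE M21 and promoters from RefSeq, both on GRCm38. The 10 genes and all lists (other immediate early genes, upstream factors, heat shock genes and markers of 8 cell types or regions) were chosen with earlier results of these data known. All 10 genes are described, and a fold change is printed where it exceeds its SE. From other lists at most the 4 genes with the smallest p per comparison are named, and the 10 genes most like the members by r. Alternatives were limma-voom (limma 3.58.1) without and with sample quality weights, DESeq2 1.42.0, RLE factors, other filters, no replicate block, covariates for library size, smooth muscle or B-cell scores, and libraries left out. The tests were tested on simulated data.

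Of the marker lists, 0 genes were called by FDR in any of the 4 diet and metformin contrasts. In HFD vs. CD the unadjusted threshold of 0.05 was passed by 8 of 10 B-cell, 3 of 9 smooth muscle and 0 of the epithelium (10), ileum (4), T-cell (6), macrophage (8), endothelium (8) and fibroblast (8) markers tested.

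Same-numbered libraries of different groups deviated together weakly (mean r of 0.142 over 72 pairs, 41 above 0.1, against -0.0702 over 144 pairs of different number), so the numbers are not shown to pair every library.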

Additional observations from a re-analysis of the deposited data

How the results depend on the processing

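Members called in the 4 diet and metformin contrasts, the interaction, males vs. females and the sex differences stayed at 0 under every alternative and with any 1 library left out, except for 1 (Dusp1) in HFD vs. CD with quality weights. Without the replicate block 0 were called in these comparisons; the block changed no call there. The replicate numbers gave less stable counts. In number 3 vs. 1 (1 called) the count was 2 with limma-voom, DESeq2, at least 10 counts in every library (which leaves 8 members) or the smooth muscle covariate, 8 with quality weights, 0 without a filter or with library size or B-cell covariates, 4 without HFD M3 and HFDmetf M3, and 0 to 2 with 1 library left out. In 3 vs. 2 (0 called) it was 1 with limma-voom, the stricter filter or without CD M3 and HFDmetf F2, 2 with DESeq2, 6 with quality weights, 3 without HFD M3 and HFDmetf M3, and 0 to 2 with 1 library left out. Over all numbers (1 called) it was 2, 6 and 4 with limma-voom, quality weights and without HFD M3 and HFDmetf M3, 0 with RLE, no filter, either score, library size or without both HFD replicate 2 libraries, and 0 to 2 with 1 library left out. The cause was not tested. The fits that leave out 2 libraries other than the HFD replicate 2 libraries were chosen after seeing the data. HFD M3 and HFDmetf M3 held high values of several members, so the counts without them depend on that choice.

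Of the 50 member fold changes that exceeded their SE, 7 turned direction under some other setting and 2 with 1 library left out. Those smaller than their SE were not followed in this count. In HFDmetf vs. HFD Nr4a1 was at -0.13 (limma-voom), -0.64 (quality weights), -0.20 (smooth muscle covariate) and -0.074 to 0.72 with 1 library left out (lowest without HFDmetf M1), and Atf3 at 0.0069 (limma-voom). With library size as covariate, 3 vs. 2 gave 0.028 for Jun, 0.14 for Junb and 0.018 for Zfp36. Of the sex differences, Atf3 in HFD vs. CD was at -0.26 and Fos in HFDmetf vs. CDmetf at -0.084 with quality weights, and Fos at -0.30 without HFD M3 and HFDmetf M3 and at -0.16 to 1.49 with 1 library left out (lowest without HFDmetf M3). All genes called in HFD vs. CD were 0 with edgeR, 13 with DESeq2 and 465 with quality weights; in 3 vs. 1 they were 2315, 3396 and 6798. With quality weights, all genes called were 42 in HFDmetf vs. CDmetf, 392 in HFDmetf vs. HFD, 12 in CDmetf vs. CD and 518 for the interaction, each 0 with edgeR.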
